A study of Mus musculus with 24 samples.

Results

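The genes described here are the AP-1 family transcription factors Fos, Fosb, Fosl2, Jun, Junb, Jund, Batf and Atf3, chosen by name as every probe that the deposited array table gives to a member. Of the 8 genes, 7 had a probe, with 1 probe each among the 25697 probes of the table, and all 7 were detected on at least 1 array, among 10418 genes that were. Jund was listed under an older symbol and was matched by its Entrez identifier, and no probe was matched to Fosl2, which was not analysed here.

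RNA of CD4+ T cells was hybridised to 24 Illumina MouseRef-8 v2 arrays, from WT mice and from BAF180 cKO mice, which the labels describe as 4 to 6 weeks old and Balb/c, while the methods describe a mixed B6-129 background crossed to CD4-Cre. In the cKO mice the Cre driven by the CD4 promoter deletes Pbrm1, which encodes BAF180, a subunit of the PBAF form of the SWI/SNF chromatin remodeling enzyme, in T cells, and the WT animals are not stated to carry the Cre. Each genotype had 3 arrays, labelled A, B and C, in each of 4 states. Resting Naïve cells were CD4+CD62L+ cells of lymph nodes and spleen at 95% purity, which gave stimulated Naïve cells after 24 h on plates coated with anti-CD3 (1 µg/ml) and anti-CD28 (2 µg/ml). Resting Th2 cells were grown from Naïve cells on the same antibodies with IL-4 (10 ng/ml) and anti-IFN-gamma (10 µg/ml), then expanded in IL-2 (100 U/ml), and stimulated Th2 cells were those cells after 1.5 h of PMA (50 ng/ml) and ionomycin (500 ng/ml). The study asked which genes depend on BAF180 in each state. According to the study, paired mice of both genotypes were the source of the array data, but no label ties an array to its animal, so p-values measure the spread between these arrays only.

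AP-1 is a dimer of proteins with a basic DNA-contacting region and a leucine zipper. FOS proteins bind DNA only with a partner, usually a JUN protein, while JUN proteins also pair with each other. BATF pairs with JUN proteins and binds together with IRF4, and ATF3 is an inducible member that often represses its targets. In T cells the T cell receptor raises FOS and JUN through the MAP kinases, and AP-1 joins NFAT at cytokine genes. Many members are immediate early genes, which are transcribed within minutes of a signal without new protein synthesis and whose RNA is short-lived, also when cells are disturbed during isolation.

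Levels are log2 intensities after background correction and quantile normalization, differences are log2 differences between group means with their standard error (SE), and errors of levels are SD over 3 arrays. A probe was called detected on an array at a deposited detection p of at most 0.02, and adjusted p-values are from limma over all kept probes. Overlap of arrays between groups was read for the members and Pbrm1 only, so no share of all genes stands beside it. A lower level in a bulk sample can come from fewer cells of a type or from less RNA per cell, which cannot be told apart here.

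Promoters are shown for the members that stand for the patterns described below: Fos and Junb, which were high in resting Naïve cells, Batf, which ran the other way, and Atf3, which split by replicate. All 8 members matched the RefSeq table for build GRCm38.p6, and the 250 bases before the annotated start are printed. Capitals mark the letters TGACG on either strand, the core of the site of CREB and ATF proteins, and TATAAA, the TATA box.
Fos (chr12:85473640-85473889, plus strand): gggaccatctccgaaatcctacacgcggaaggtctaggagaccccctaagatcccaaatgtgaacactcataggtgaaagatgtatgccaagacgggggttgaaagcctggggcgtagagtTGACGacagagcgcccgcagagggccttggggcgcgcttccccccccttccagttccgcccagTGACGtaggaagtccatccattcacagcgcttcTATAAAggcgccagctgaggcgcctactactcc
Junb (chr8:84978749-84978998, minus strand): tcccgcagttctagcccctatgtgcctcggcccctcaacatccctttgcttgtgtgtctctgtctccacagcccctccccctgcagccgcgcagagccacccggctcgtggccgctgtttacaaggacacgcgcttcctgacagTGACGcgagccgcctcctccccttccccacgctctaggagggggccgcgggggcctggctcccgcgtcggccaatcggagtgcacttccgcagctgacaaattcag
Batf (chr12:85686470-85686719, plus strand): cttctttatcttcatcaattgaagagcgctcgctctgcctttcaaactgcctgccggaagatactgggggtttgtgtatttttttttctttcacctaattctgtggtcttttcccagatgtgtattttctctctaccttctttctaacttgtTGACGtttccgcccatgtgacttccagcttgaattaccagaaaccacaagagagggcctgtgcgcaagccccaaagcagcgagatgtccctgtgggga
Atf3 (chr1:191183334-191183583, minus strand): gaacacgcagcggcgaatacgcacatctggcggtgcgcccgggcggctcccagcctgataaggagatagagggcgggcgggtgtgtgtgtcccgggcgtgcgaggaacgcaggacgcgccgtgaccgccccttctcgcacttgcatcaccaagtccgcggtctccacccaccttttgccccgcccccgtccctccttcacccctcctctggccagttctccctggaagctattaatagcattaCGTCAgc
The letters TGACG stood in the promoters of 5 of the 8 members (Fos, Fosb, Junb, Batf and Atf3), against 17.8% of all 32851 promoters of the table. The Fosb window (chr7:19310046-19310295, minus strand, not printed) overlaps the gene as annotated, which ends at 19310118. Its TGACG lies in that overlap and not before the outermost start. Fos held them at 2 places and also held TATAAA, found in 12.4% of all promoters. The full palindrome TGACGTCA, which contains TGACG and was in 1.55% of promoters, the AP-1 site TGACTCA (4.46%) and the CArG box bound by SRF (1.47%) were in none of the 8 windows. These are matches of letters in a short window and nothing was measured on them.
The Batf probe is shown because it lies in coding sequence, in the part that encodes the basic DNA-contacting region of the protein.
Batf probe: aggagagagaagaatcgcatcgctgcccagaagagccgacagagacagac

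Pbrm1 was lower on every BAF180-deficient array than on any WT array of the same state by its brightest probe, with means of 7.52 ± 0.32 against 8.54 ± 0.29 in resting Naïve and 6.87 ± 0.30 against 8.29 ± 0.20 in stimulated Th2 cells. The remaining signal stayed detected, and where this probe lies relative to the deleted exon was not examined. Between 8047 and 10689 probes were detected per array. All 6 CD4 T cell markers (Cd4, Cd3d, Cd3e, Cd3g, Cd28 and Lck) were detected on every array. Of the Th2 markers, Gata3 and Il4 were detected on all arrays and reached 10.74 ± 0.34 and 14.02 ± 0.06 in WT stimulated Th2 cells, whereas Il1rl1 was detected on 3 of the 24. Resting Naïve arrays stood apart in the markers of other cells. All 9 myeloid markers measured were detected on all 6 of these arrays, with a summed level of 3540 to 12700, against 178 to 277 on the other 18. On those 18 the defining markers Lyz2 and Cd14 were not detected, but others of the 9 were. Depending on the group, 4 to 7 of the 9 were detected on no array there. Up to 3 were detected on all 3 arrays of a group, in BAF180-deficient stimulated Naïve cells. Erythroid markers summed to 347 to 12200 in resting Naïve cells and 60.9 to 330 elsewhere, and B cell markers to 466 to 1190 and 118 to 569. The heat shock gene Hspa1a, which rises when cells are stressed, was at 7.11 ± 0.44 in WT and 6.69 ± 0.71 in BAF180-deficient resting Naïve cells and undetected in all other groups. The handling and heat stress list as a whole ran the other way, with the 6 measured genes summing to 7260 to 10500 in resting Naïve cells and to 10400 to 16800 on the other 18 arrays, and with 4 of the 6 higher and 1 lower in stimulated than in resting WT Naïve cells. The part of these cells and of handling in the AP-1 levels was not tested.

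In normalized level, Fos, Fosb, Jun, Junb and Jund shared one shape over the 8 groups. Every resting Naïve array lay above every array of the other states in both genotypes. In deposited intensity, before any normalization, this held for Fos, Fosb and Junb but not for Jun or Jund. Jun read 263.8 in WT stimulated Th2 C, against 238.9 in WT resting Naïve C, its highest resting Naïve array. Jund read 163 in BAF180-deficient resting Th2 B, above the 129.1 of BAF180-deficient resting Naïve A. Batf had the opposite shape in normalized level, with its lowest levels in resting Naïve cells. Atf3 differed from both, since it was lowest in resting Th2 cells and spread widely in resting Naïve cells. Its WT resting Naïve C array (4.89) was close to the highest resting Th2 array (4.86). BAF180-deficient and WT cells differed in none of the 7 by the criteria of the methods, in any state.

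**Figure D1:**
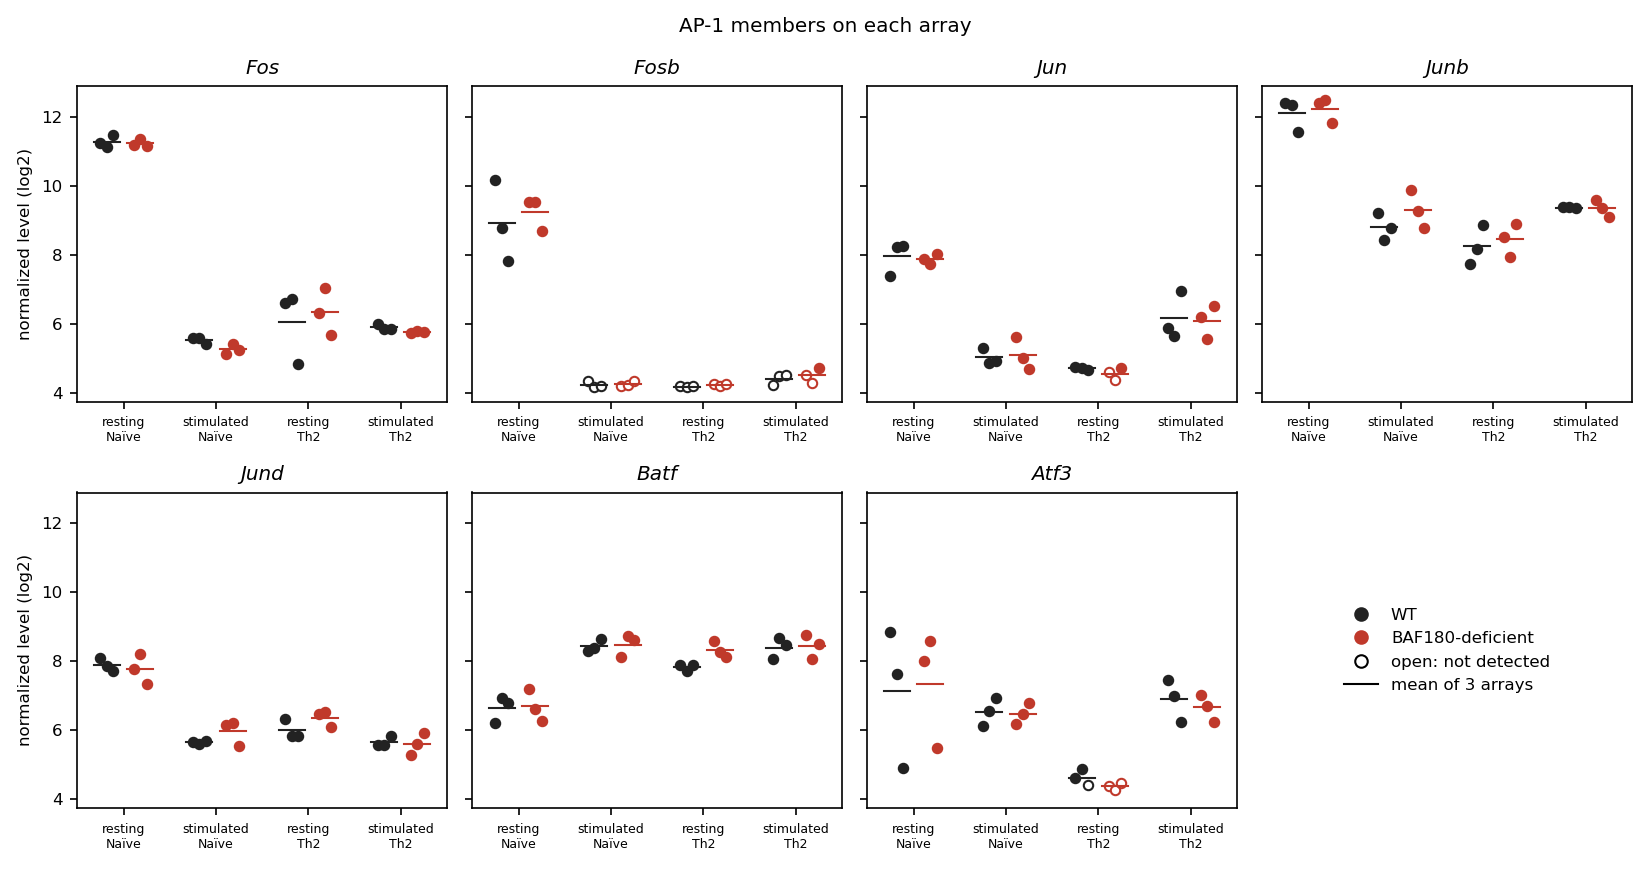
Normalized log2 level of each AP-1 member (y axis) on each of the 24 arrays, by state (x axis) and genotype. Points are arrays in the order A, B, C, open where the probe was not detected, and bars are means of 3 arrays. The 6 resting Naïve arrays of Fos lie between 11.11 and 11.46 and no other array exceeds 7.02.

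Fos encodes c-FOS, the best known partner of JUN. In WT resting Naïve cells its level was 11.23, 11.11 and 11.46 on arrays A, B and C, and in BAF180-deficient ones 11.17, 11.36 and 11.15, so the genotypes overlapped fully and the spread was small. After 24 h on anti-CD3 and anti-CD28 it was 5.57, 5.59 and 5.41 in WT and 5.12, 5.40 and 5.24 in BAF180-deficient cells. All stimulated arrays were far below all resting ones while still detected. In deposited intensity, before any normalization, resting arrays read 903.9 to 1851.5 and stimulated arrays 55.7 to 73.9. In resting Th2 cells Fos varied more, with 6.61, 6.72 and 4.82 in WT and 6.31, 7.02 and 5.68 in BAF180-deficient cells, array C being the lowest in both. Stimulated Th2 cells gave 6.00, 5.84 and 5.85 in WT and 5.74, 5.78 and 5.76 in BAF180-deficient cells, a narrow band inside the range of the resting arrays. In order of the means, Fos ran from both resting Naïve groups through both resting Th2 groups and both stimulated Th2 groups to both stimulated Naïve groups. The resting Th2 groups overlapped each other and WT stimulated Th2 cells, and the lower neighbours did not overlap although their means lay close together, from 5.90 to 5.26.

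Fosb encodes FOSB, which like c-FOS needs a JUN partner. Its level in resting Naïve cells was 10.15, 8.76 and 7.82 in WT and 9.52, 9.53 and 8.68 in BAF180-deficient cells. Array C was the lowest in both genotypes and the genotypes overlapped. Outside resting Naïve cells Fosb was detected on 1 of 18 arrays, BAF180-deficient stimulated Th2 C at 4.71, and its other values there, 4.15 to 4.52, have no order.

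Jun encodes c-JUN. It was at 7.38, 8.23 and 8.24 in WT and 7.86, 7.73 and 8.01 in BAF180-deficient resting Naïve cells. Stimulated Th2 cells came next, with 5.88, 5.64 and 6.95 in WT and 6.2, 5.55 and 6.52 in BAF180-deficient cells. Both genotypes were lowest in resting Th2 cells, with 4.73, 4.72 and 4.65 in WT and 4.59, 4.37 and 4.70 in BAF180-deficient cells, of which the last group was detected on 1 array only. Stimulated Naïve cells, from 4.68 to 5.61, had means between these but overlapped both, stimulated Th2 cells by 1 BAF180-deficient array and resting Th2 cells by another.

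Junb encodes JUNB, a JUN protein known for acting on Il4 in Th2 cells. It was detected on all 24 arrays. Its level was 12.40, 12.33 and 11.54 in WT and 12.38, 12.47 and 11.81 in BAF180-deficient resting Naïve cells, again with C lowest in both. In resting Th2 cells it was 7.72, 8.17 and 8.86 in WT and 8.52, 7.94 and 8.88 in BAF180-deficient cells, and in stimulated Th2 cells 9.37, 9.39 and 9.34 and 9.59, 9.35 and 9.10. Stimulated Th2 arrays of each genotype were above the resting arrays of the same genotype. Stimulated Naïve cells, at 9.22, 8.43 and 8.77 in WT and 9.87, 9.25 and 8.76 in BAF180-deficient cells, overlapped both Th2 states.

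Jund encodes JUND, the JUN protein that is usually the least inducible. Its level was 7.33 to 8.21 over the 6 resting Naïve arrays and 5.28 to 6.52 over the other 18, all of them detected. Resting Th2 cells were at 5.99 ± 0.27 in WT and 6.36 ± 0.24 in BAF180-deficient cells, and all neighbours below resting Naïve cells overlapped.

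Batf was at 6.22, 6.92 and 6.80 in WT and 7.20, 6.60 and 6.27 in BAF180-deficient resting Naïve cells. It was 7.89, 7.72 and 7.90 in WT resting Th2 cells and 8.59, 8.26 and 8.12 in BAF180-deficient ones, which did not overlap. Both stimulated states, at 8.05 to 8.75 over 12 arrays, lay above every resting Naïve array and overlapped BAF180-deficient resting Th2 cells.

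Atf3 was at 8.83, 7.62 and 4.89 in WT and 8.0, 8.58 and 5.48 in BAF180-deficient resting Naïve cells. Array C was by far the lowest in each genotype. Stimulated Naïve cells were tighter, at 6.12, 6.55 and 6.92 in WT and 6.17, 6.48 and 6.78 in BAF180-deficient cells, and stimulated Th2 cells were at 7.46, 7.0 and 6.23 and at 7.03, 6.70 and 6.24. In resting Th2 cells Atf3 was detected on WT arrays A and B (4.60 and 4.86) and on no BAF180-deficient array. Apart from the step down to resting Th2 cells, all neighbours in the order of means overlapped.

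In resting Naïve cells, array C was the lowest of its genotype in both genotypes for Fosb, Junb, Jund and Atf3, and not for Fos, Jun or Batf. On these C arrays the B cell sum was 929 in WT and 1190 in BAF180-deficient cells, against 466 to 492 on A and B. The myeloid sum on A, B and C was 3540, 3990 and 12700 in WT and 4540, 6110 and 6940 in BAF180-deficient cells. The erythroid sum was 2420, 347 and 12200 in WT and 3760, 5370 and 5960 in BAF180-deficient cells. The WT C array had the highest myeloid sum of all arrays and the lowest resting Naïve level of Fosb, Junb and Atf3. It also had the highest resting Naïve level of Fos (11.46) and of Jun (8.24, against 8.23 on WT B). BAF180-deficient B, with a myeloid sum of 6110, had the highest Fos, Fosb, Junb, Jund and Atf3 of its genotype. Its Fosb was 9.53 against 9.52 on A, and its Jun (7.73) was the lowest of its genotype. The part of these cells in the difference was not tested.

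**Figure D2:**
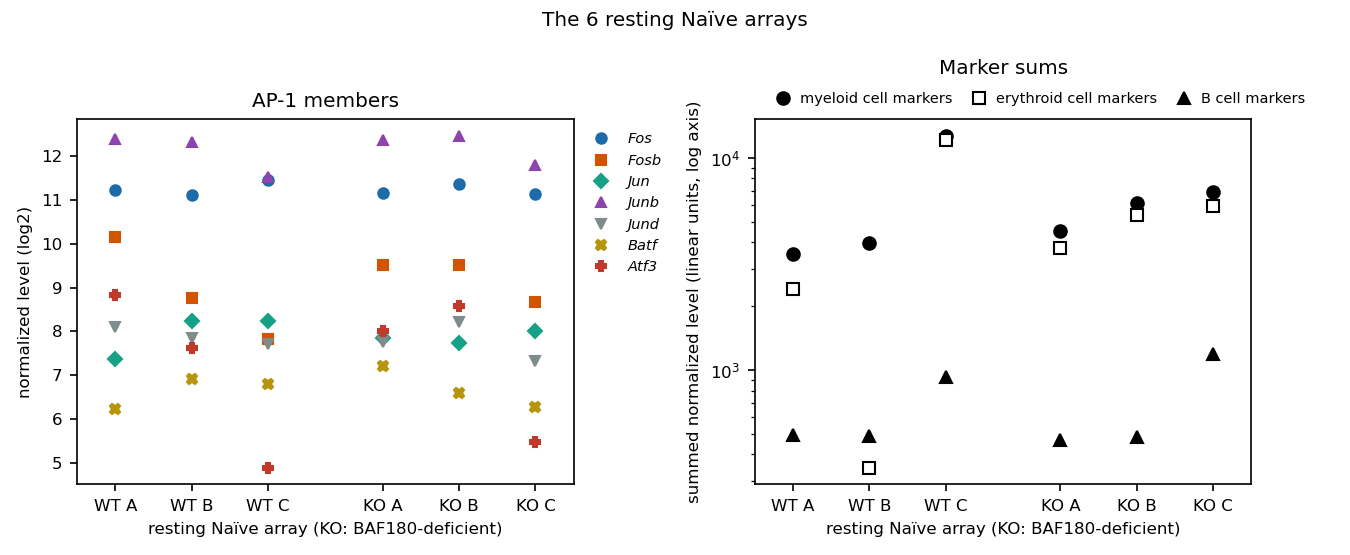
The 6 resting Naïve arrays (x axis), with the normalized log2 level of each AP-1 member on the left and the summed normalized level of myeloid, erythroid and B cell markers on a log axis on the right. Atf3 is at 4.89 and 5.48 on the C arrays and at 7.62 or above on A and B, while Fos stays between 11.11 and 11.46.

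After 24 h of anti-CD3 and anti-CD28, Naïve cells had lower levels of Fos, Fosb and all 3 JUN genes and a higher level of Batf, in each genotype. In WT cells 5 of the 7 members fell, where 21.9% of all genes did, and 1 rose, where 23.3% of all genes did. In BAF180-deficient cells the counts were also 5 and 1, with 21.3% and 22.1% of all genes. The median over the 7 members was -2.93 in WT and -2.78 in BAF180-deficient cells, and -0.01 over all genes in both.

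Fos fell by 5.75 (SE 0.34, 53.6-fold, adjusted p = 5.34e-11) in WT and by 5.97 (62.7-fold, adjusted p = 3.39e-11) in BAF180-deficient Naïve cells. Fosb went from detected on all resting arrays to detected on no stimulated array, and was at least 19.1-fold higher at rest in WT (adjusted p = 1.1e-09) and at least 24.4-fold in BAF180-deficient cells (adjusted p = 5.14e-10), the undetected side being taken at the lowest detected signal of each array. The 3 JUN genes fell too. In WT and BAF180-deficient cells the differences were -3.28 (SE 0.32, 9.74-fold) and -2.93 (7.62-fold) for Junb, -2.93 (SE 0.30, 7.63-fold) and -2.78 (6.85-fold) for Jun, and -2.24 (SE 0.22, 4.73-fold) and -1.80 (3.48-fold) for Jund. These 5 genes had no overlap between resting and stimulated arrays, and the share of all genes without overlap was not counted. Batf rose by 1.79 in WT (SE 0.24, 3.46-fold, adjusted p = 4.42e-06) and by 1.80 in BAF180-deficient cells (adjusted p = 4.46e-06), also without overlap.

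Atf3 did not pass the test in Naïve cells, with differences of -0.58 (SE 0.71, adjusted p = 0.554) in WT and -0.88 (adjusted p = 0.354) in BAF180-deficient cells. Taken by replicate letter, stimulated minus resting was -2.71, -1.07 and 2.03 in A, B and C of WT and -1.83, -2.1 and 1.3 in BAF180-deficient cells, negative in A and B and positive in C of each genotype. Without WT resting Naïve C the WT difference was -1.70 (limma, adjusted p = 0.0249), without BAF180-deficient resting Naïve C the other was -1.82 (adjusted p = 0.0357), and without WT resting Naïve A the WT difference was 0.28.

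**Figure D3:**
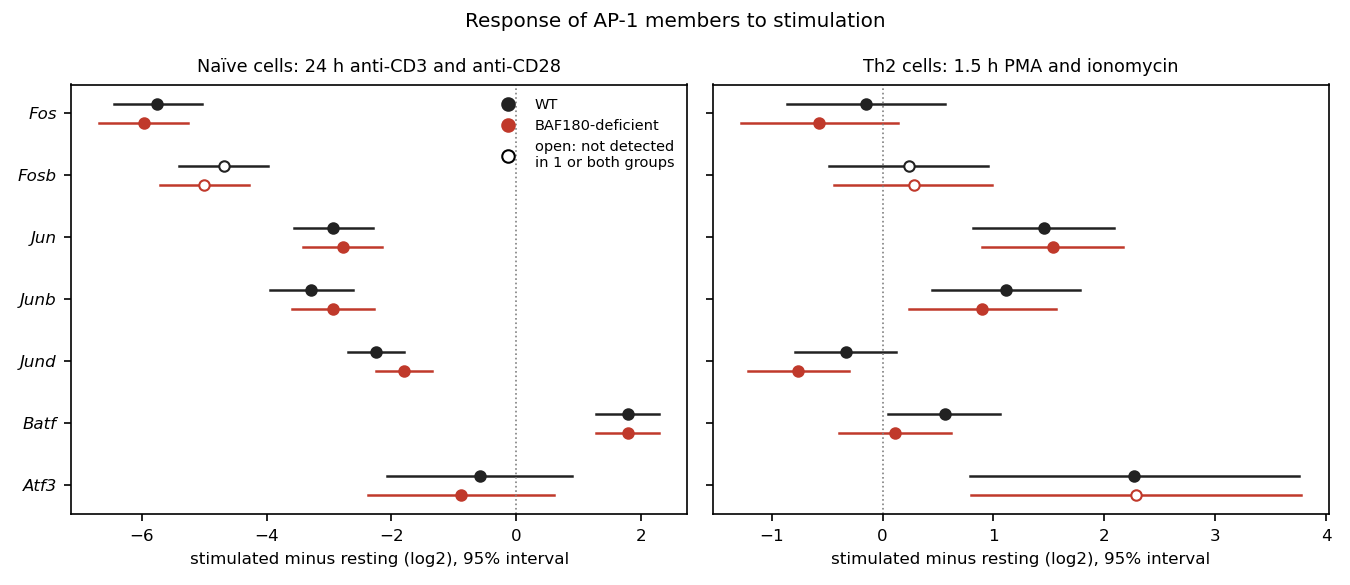
Difference between stimulated and resting cells (x axis, log2) for each AP-1 member, with 95% intervals from limma, in Naïve cells (left) and Th2 cells (right) of both genotypes. Open points have a group in which the probe was not detected on any array. Fos lies at -5.75 and -5.97 in Naïve cells and at -0.15 and -0.57 in Th2 cells.

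After 1.5 h of PMA and ionomycin, Th2 cells had higher levels of Atf3, Jun and Junb in both genotypes. That is 3 of 7 members, where 12.5% of all genes rose in WT and 11.7% in BAF180-deficient cells. None fell in WT, where 15.9% of all genes did, and Jund alone fell in BAF180-deficient cells, where 15.4% did. The members' median difference was 0.56 in WT and 0.28 in BAF180-deficient cells, against -0.01 over all genes.

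Atf3 rose by 2.27 in WT (SE 0.71, 4.84-fold, adjusted p = 0.0207), and in BAF180-deficient cells it was at least 4.24-fold higher after stimulation (adjusted p = 0.0213). Jun rose by 1.46 (SE 0.30, 2.74-fold, adjusted p = 0.000967) and by 1.54 (adjusted p = 0.000687). In the BAF180-deficient resting Th2 group only 1 of 3 Jun arrays was detected, so no fold is given there. WT resting Th2 cells were near the detection limit too, for Jun (4.65 to 4.73, detected on 3 arrays) and Atf3 (detected on 2). The WT folds of both are set against these low values. Junb rose by 1.11 (SE 0.32, 2.17-fold, adjusted p = 0.0113) and by 0.90 (1.87-fold, adjusted p = 0.0412). For all 3 genes every stimulated array was above every resting array of its genotype, and within each letter Atf3 was higher after stimulation, by 2.86, 2.14 and 1.83 in WT.

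Fos, which fell in Naïve cells, differed by -0.15 in WT (SE 0.34, adjusted p = 0.837) and by -0.57 in BAF180-deficient Th2 cells (adjusted p = 0.255). Without WT resting Th2 C, the low array, the WT difference was -0.77 (adjusted p = 0.0212). Fosb was near or below the detection limit in all Th2 groups. Batf differed by 0.56 in WT (adjusted p = 0.0986), with stimulated arrays above resting ones, and by 0.11 in BAF180-deficient cells. Jund differed by -0.33 in WT (adjusted p = 0.314) and fell by 0.76 in BAF180-deficient cells (SE 0.22, adjusted p = 0.0131). The difference between these 2 responses was -0.43 (SE 0.31, adjusted p = 1) and did not pass the test, so a response of Jund particular to BAF180-deficient cells was not shown.

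Several calls in Th2 cells depended on the processing or on single arrays. Junb in WT was not called with Z-scores (1.00, adjusted p = 0.106), and Atf3 not without background correction (1.5 in WT, adjusted p = 0.0523, and 1.46 in BAF180-deficient cells, adjusted p = 0.0621) or without a detection filter (adjusted p = 0.0585 and 0.0586). In WT the count went from 3 to 1 without resting Th2 A, where Jun remained called, Junb was at 0.85 (adjusted p = 0.0776) and Atf3 at 2.27 (adjusted p = 0.051). In WT, Atf3 also lost its call without stimulated A (1.99, adjusted p = 0.0879), stimulated B (2.22, adjusted p = 0.057) or resting C (2.17, adjusted p = 0.0614). In BAF180-deficient cells the count of 4 became 1 (Jun) without stimulated A, resting A or resting B, and 2 (Jun and Jund) without stimulated B. Junb was lowest without resting B (0.65, adjusted p = 0.211) and Jund weakest without stimulated A (-0.60, adjusted p = 0.0833). Atf3 had adjusted p-values of 0.0555 to 0.0761 without these 4 arrays.

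The change in WT Th2 cells differed from that in WT Naïve cells in all 7 members, tested as a contrast in the same model, where 26.1% of all genes did. The Th2 response was higher by 5.59 for Fos (SE 0.48, adjusted p = 3.92e-08), 4.40 for Junb and 4.39 for Jun, and the same contrast was -1.23 for Batf (SE 0.34, adjusted p = 0.0108). The stimuli and times differed between the cells (24 h of plate-bound antibodies, 1.5 h of PMA and ionomycin), so cell type, agent and time cannot be told apart.

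At rest, Th2 cells had lower levels of 6 of the 7 members than Naïve cells and a higher level of Batf, in each genotype. Among all genes 17.6% were lower and 17.9% higher in WT, and 17.5% and 18.2% in BAF180-deficient cells. These comparisons use the same resting Naïve arrays as those of the Naïve response. The Th2 minus Naïve difference of Fos was -5.22 (SE 0.34, 37.2-fold, adjusted p = 2.6e-10) in WT and -4.89 (29.7-fold) in BAF180-deficient cells. Fosb was at least 19.8-fold and at least 25.4-fold lower. The differences were -3.84 and -3.78 for Junb, -3.25 and -3.32 for Jun, and -1.90 and -1.41 for Jund, in WT and BAF180-deficient cells. Batf was higher by 1.19 (SE 0.24, adjusted p = 0.000661) and 1.63 (adjusted p = 2.47e-05). Atf3 differed by -2.49 in WT (SE 0.71, adjusted p = 0.00988) and was at least 6.86-fold lower in BAF180-deficient cells (adjusted p = 0.00273). Without WT resting Naïve A the WT value of Atf3 was -1.63 (adjusted p = 0.0881).

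Between genotypes none of the 7 members met the 4 criteria of the methods in any state. These ask that the difference exceed 1.5 SD of all probes' differences (the Z-ratio), that p be under 0.05 and FDR under 0.3, here both from limma, and that the average signal be positive. The last was met by every probe, because the offset of 16 keeps the log2 levels used here above 0. Of all genes 0.758% met them in resting Naïve, 0.115% in stimulated Naïve, 0.106% in resting Th2 and 0.096% in stimulated Th2 cells, and at these low rates a count of 0 among 7 members is near the background. Over the 28 differences of the members (7 genes in 4 states) the range was -0.27 to 0.49, the lowest unadjusted p was 0.0591, and none was below 0.05. All 28 of the 95% intervals held 0. Leaving Atf3 aside, the 24 intervals reached from -0.97 to 1.15 at their extremes, and their width differed between genes. The intervals of Atf3 reached -1.74 and 1.73.

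The largest difference was Junb in stimulated Naïve cells, at 0.49 (SE 0.32, interval -0.18 to 1.15, limma adjusted p = 1). By letter, BAF180-deficient minus WT was 0.65, 0.82 and -0.01, so array C did not share it. Batf in resting Th2 cells had the lowest p, with a difference of 0.48 (SE 0.24, interval -0.02 to 0.99, limma adjusted p = 1), and was higher in all 3 letters, by 0.70, 0.54 and 0.22. Jund differed by 0.37 in resting Th2 and 0.32 in stimulated Naïve cells (SE 0.22). Fosb in resting Naïve cells differed by 0.33, by letter -0.63, 0.77 and 0.86, and without WT resting Naïve A by 0.95 (adjusted p = 0.14), which met the 4 criteria. Fos in stimulated Naïve cells had no overlap between genotypes, but the difference was -0.27 (SE 0.34, adjusted p = 1), and negative in all 3 letters (-0.45, -0.19 and -0.17). Fos was also lower in all 3 letters in stimulated Th2 cells (-0.26, -0.06 and -0.09), without overlap, and Jund higher in all 3 in resting Th2 cells (0.16, 0.68 and 0.26). None of these differences met the criteria.

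**Figure D4:**
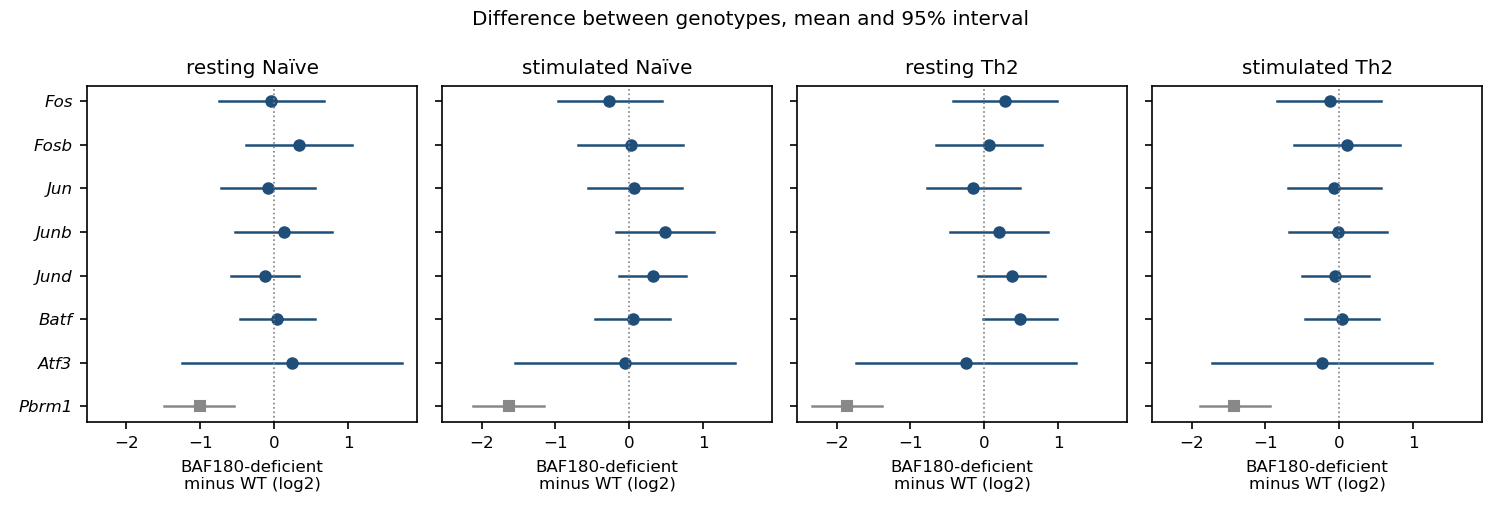
BAF180-deficient minus WT level (x axis, log2) of each AP-1 member and of Pbrm1 in the 4 states, with 95% intervals from limma. All 28 intervals of the AP-1 members hold 0, whereas Pbrm1 lies between -1.01 and -1.86.

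No member's change with stimulation differed between WT and BAF180-deficient cells at an adjusted p below 0.05, where 0.0096% of all genes did in Naïve and 0% in Th2 cells. The 14 values lay between -0.44 and 0.44 with a lowest unadjusted p of 0.166 from limma, so none was below 0.05.

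Other genes of the pathway were taken from lists, and no gene of any of these pathway lists was called between genotypes. Of all genes 0.096% to 0.758% were called, depending on the state. The study, with its own processing of these arrays, lists some of these pathway genes as changed. In Th2 cells Il2ra appeared repressed and Prkca and Egr1 activated by BAF180, and in Naïve cells Ifng was listed as repressed. Here their differences did not meet the criteria. Counts are of kept genes by brightest probe in WT cells. Among 10 other immediate early genes, 7 rose and 2 fell in the Th2 response, where 12.5% and 15.9% of all genes did, with a median of 1.87, against -0.01 over all genes. The zinc finger factors Egr2 and Egr1 rose by 5.21 and 3.97, and the nuclear receptor Nr4a3 was at least 6.08-fold higher. Klf2, a quiescence factor, was at least 23.5-fold lower, and Klf6 fell by 0.79. In the Naïve response, where 23.3% of all genes rose and 21.9% fell, 2 of these 10 rose (Egr2 by 2.23 and Myc by 1.42) and 4 fell, with the largest differences for Klf2 (-5.71), Klf6 (-2.53) and the NF-kappaB inhibitor Nfkbia (-1.40). At rest, 7 of the 10 were lower in Th2 than in Naïve cells and none higher, where 17.6% and 17.9% of all genes were. Egr1 was among those lower (11.64 ± 0.78 in resting Naïve, 6.40 ± 0.35 in resting Th2). Egr1 went from 11.64 to 10.63 ± 0.48 in stimulated Naïve cells, a fall of 1.01 (difference -1.01, adjusted p = 0.0172).

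**Figure D5:**
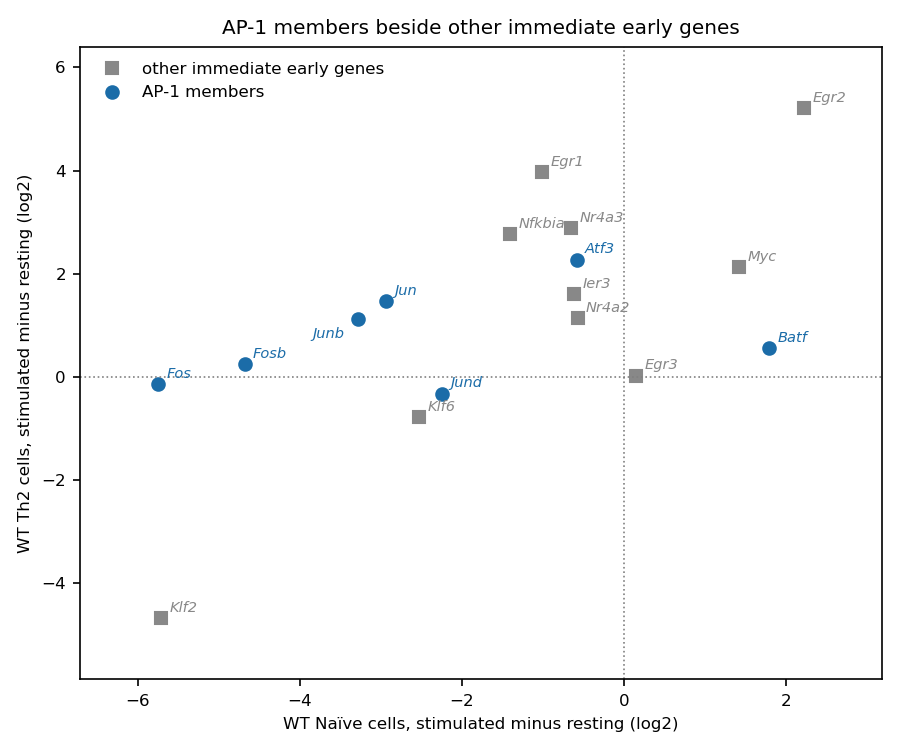
Response of WT Naïve cells (x axis, log2) and of WT Th2 cells (y axis, log2) for the 7 AP-1 members and 10 other immediate early genes, 1 point per gene from its brightest probe. Fos and Fosb lie far to the left near 0 on the y axis (Fosb was undetected in both Th2 states), whereas Egr1 lies at -1.01 and 3.97.

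Of 11 known AP-1 target genes in T cells, 8 rose in the Th2 response and none fell, where 12.5% and 15.9% of all genes did, with a median of 3.97 against -0.01 over all genes. Csf2 (GM-CSF) rose by 6.5 and Ifng by 6.05, and Il3 was at least 396-fold higher. In the Naïve response 7 rose and 2 fell, where 23.3% and 21.9% of all genes did. Il2ra rose by 3.04 and Il4 by 2.71, Il3 was at least 7.77-fold higher, and the falls were of Ccnd1 (cyclin D1, -3.18) and the activation marker Cd69 (-1.43). Of 11 other bZIP proteins that pair with JUN or FOS, few passed the test, and the counts of 2 that rose in the Th2 and 3 in the Naïve response are near the shares of all genes (12.5% and 23.3%). In the Th2 response they were Atf4 by 1.78 and Fosl1 (FRA-1) to at least 2.94-fold higher. In the Naïve response Batf3 rose by 1.86, Mafg by 1.05 and Atf4 by 0.88. None of the 11 fell in either.

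Partners at composite sites moved both ways, in counts set against 12.5% of all genes rising and 15.9% falling in the Th2 and 23.3% and 21.9% in the Naïve response. Irf4, which binds with BATF, rose by 2.17 in the Th2 and 3.12 in the Naïve response, and Irf8 rose by 2.86 in the Th2 response, so that 2 and 1 of 7 rose. Of the 3 that fell in each, Ets1 differed by -1.49 and -2.63 and Nfatc3 by -1.35 and -1.28, and the others named were Nfatc1 in the Th2 (-0.57) and Runx1 in the Naïve response (-0.90). Of 12 regulators of AP-1 protein and RNA, 4 rose and 2 fell in the Th2 response, where 12.5% and 15.9% of all genes did. The phosphatase gene Dusp2 rose by 2.65, Zfp36l1 by 1.73 and Fbxw7 by 0.67, and the falls were of Ncor1 (-0.90) and Sirt1 (-0.72). In the Naïve response, where 23.3% of all genes rose and 21.9% fell, 2 rose, Cops5 by 1.62 and Fbxw7 by 0.70, and 5 fell, with the largest falls for Dusp1 (-4.73), Zfp36 (-3.81) and Dusp2 (-1.53). Dusp1, itself an immediate early phosphatase gene, was at 11.67 ± 0.07 in WT resting Naïve cells and between 6.91 and 7.15 in all groups of the other states.

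Of 17 kinases and their activators upstream of AP-1, 2 rose and 6 fell in the Th2 response, where 12.5% and 15.9% of all genes did, and 2 rose and 5 fell in the Naïve response, where 23.3% and 21.9% did. The counts of genes that rose are near or below these shares. Rasgrp1, the RAS activator of T cells, fell in both (-2.01 and -2.19), as did Map3k1 (-1.06 and -1.48), whereas Prkca rose by 0.96 and 1.64. Prkcq, the protein kinase C of the T cell synapse, fell by 1.75 in the Th2 response. Hras rose by 1.03 and Mapk14 (p38) fell by 1.1 in the Naïve response. Of 7 activators of FOS and JUN transcription, Elk3 alone rose in the Th2 response, by 0.74, and none fell, counts near or below the shares of all genes. In the Naïve response Crem, a cAMP-responsive factor, rose by 2.03, and 2 genes fell, Mef2a (-0.98) and Elk4 (-0.57).

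Genes with the most similar pattern over the 8 group means were found by Pearson correlation among 4763 genes that ranged by at least 1 log2. These r values rest on 8 means that share the same arrays, and are a description. Fos was most like the lysosomal channel gene Tpcn2 (0.998), Zcchc7 (0.997) and the ribonuclease gene Rnase6 (0.996). Fosb was most like Clec4n, a lectin of myeloid cells, Lpl and Slc45a3 (each 0.999), and Jund most like the Fc receptor gene Fcgr2b (0.996), Frat2 and Hhex (each 0.995). Junb was most like Ppp1r15a and Wdr45b (each 0.994) and Prkcd (0.993), and Jun like Prf1 (0.994), Nfkbib (0.988) and Zrsr2 (0.982). Batf was most like the splicing genes Snrpd3 (0.995) and Srsf9 (0.994) and the export factor gene Nxt1 (0.992). Atf3 was most like Egr1 (0.989), Snapc4 (0.983) and Frmd6 (0.974). Among the members themselves r was 0.989 for Fos and Fosb, 0.966 for Jun and Junb, -0.975 for Fos and Batf, and 0.456 for Fos and Atf3.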

How the data were processed

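The deposited table held, for each of the 24 arrays, an intensity and a detection p-value per probe on Illumina MouseRef-8 v2 beadchips, not normalized and without background subtraction (lowest intensity 25.8 to 30.3 per array). The authors exported the intensities with GenomeStudio 1.6.0, per the submitters' processing notes (the methods name another version of it), and the deposited p-values give each probe's detection over negative controls. Median intensity was 40.6 to 48.9 per array, and the number of arrays limits the precision. The deposited table holds no probe sequence build, and probe coordinates were not used.

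Intensities were background corrected from the detection p-values, quantile normalized with an offset of 16 and log2 transformed (neqc, limma 3.58.1, R 4.3.3). A probe stayed in the tests where 1 or more arrays gave it a detection p up to 0.02 (14246 probes, 10418 genes), and a gene was read by its brightest probe. Probe symbols were updated through Entrez identifiers (16938 probes), accessions (7420), symbols (465) or synonyms (553), and 321 kept the name in the table. One linear model was fitted over the 8 groups of 3 arrays, with moderated tests and Benjamini-Hochberg adjustment over all kept probes (20.3 total degrees of freedom). Comparisons between genotypes used the 4 criteria of the methods on log2 levels, with p and FDR from limma. All others used an adjusted p below 0.05. This procedure was also run on simulated data with independent noise and no letter effects, unlike these arrays, and nothing here rests on that run.

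Replicate letters A, B and C were checked as pairs. Deviations from the group means of same-lettered arrays correlated at 0.301, 0.136 and 0.516, all above 0.1, when the 4 states were pooled. Within states the 12 values ran from -0.00263 to 0.662, and 2 were at or below 0.1 (B in resting Naïve and A in resting Th2 cells, 0.0474). The letters were read as pairs of WT and BAF180-deficient arrays from the pooled values and from the study's mention of paired mice. Arrays of differing letters were not correlated for comparison. Whether a letter also links resting to stimulated arrays was not checked, so differences by letter between those states are a description. The main model did not use the pairs. No pair of replicate arrays shared more than 0.973% of its values, and their correlations were 0.949 to 0.989.

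The members and lists were chosen with earlier results of these data known. Genes named are the members, Pbrm1, up to 3 genes of each pathway list with the largest called rise and fall in each WT response, genes of these lists called between genotypes, and the 3 genes most like each member; marker genes were read as checks. One gene of the kinase list that this rule names is not reported here. Bounds written "at least" set the undetected side to the lowest detected signal of each array. Alternatives were Z-score normalization as in the methods, no background correction, other detection filters, fitting only the groups compared, the replicate block, other call rules, any probe of a gene and leaving out each array.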

Additional observations from a re-analysis of the deposited data

Results flagged for a closer look

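The response of WT Th2 cells to PMA and ionomycin differed from the response of WT Naïve cells to anti-CD3 and anti-CD28 in all 7 members, as tested by the contrast of both responses in limma. The Th2 minus Naïve difference was 5.59 for Fos, 4.92 for Fosb, 4.40 for Junb, 4.39 for Jun, 2.86 for Atf3 (adjusted p = 0.0429) and 1.91 for Jund, and -1.23 for Batf. For Fosb, the probe was undetected in both WT Th2 groups and in stimulated WT Naïve cells, so its value comes from the fall in Naïve cells, is measured against an undetected probe and is no size of a change, the fall itself being known only as at least 19.1-fold. The contrast sets different agents and times against each other, which cannot be told apart from the cell type. The count of 7 was 6 when any single WT array other than resting Naïve C or stimulated Th2 C was left out, and also 6 with Z-score normalization, without background correction, without a detection filter and with only the WT groups in the model.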

How the results depend on the processing

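With every alternative run, Fos, Fosb, Jun, Junb, Jund and Batf kept their calls in the Naïve response and between Th2 and Naïve cells at rest, in both genotypes. The count of 4 members called in the BAF180-deficient Th2 response was 2 with Z-score normalization, 2 without a detection filter and 2 when a difference of at least 1 was also required, and ranged from 1 to 4 when single arrays were left out. The count of 3 in WT was 2 with Z-scores (Junb lost), without background correction or without a detection filter (Atf3 lost), and ranged from 1 to 3 when single arrays were left out. Between genotypes in resting Naïve cells the count of 0 ranged from 0 to 1, the 1 being Fosb without WT resting Naïve A. Counts that rest on resting Naïve cells ranged from 6 to 7 for the response difference and for WT Th2 against Naïve at rest.

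Between genotypes, values near 0 changed sign: Junb in stimulated Th2 cells was 0.0331 with Z-scores, and without both resting Naïve C arrays, an alternative chosen after seeing the data, Fos was 0.0967 and Jund 0.00755 in resting Naïve cells. Leaving out single arrays, the resting Naïve ranges were -0.874 to 1.17 for Atf3, -0.213 to 0.253 for Batf, -0.118 to 0.0591 for Fos, -0.212 to 0.952 for Fosb, -0.37 to 0.0631 for Jun, -0.146 to 0.336 for Junb and -0.348 to 0.0938 for Jund. In stimulated Naïve cells they were -0.264 to 0.138 for Atf3, -0.0767 to 0.238 for Batf, -0.0223 to 0.0794 for Fosb and -0.186 to 0.278 for Jun. In resting Th2 cells they were -0.328 to 0.618 for Fos and -0.0668 to 0.499 for Junb. In stimulated Th2 cells they were -0.569 to 0.0432 for Atf3, -0.128 to 0.23 for Batf, -0.326 to 0.331 for Jun, -0.142 to 0.106 for Junb and -0.214 to 0.101 for Jund. Among responses, the ranges were -1.7 to 0.277 for Atf3 in WT Naïve, -0.767 to 0.179 for Fos in WT Th2 and -0.0463 to 0.303 for Batf in BAF180-deficient Th2 cells. The cause was not tested.

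With the replicate block, which fits for each letter an effect shared by all groups, no call changed (Fosb between genotypes in resting Naïve cells 0.332, adjusted p = 0.934). This block does not model pairs within a state. Letter effects that differ between states stay outside it, as for Atf3, lowest on C in resting and highest on C in stimulated Naïve cells. Atf3 at rest in WT lost its call when only the groups compared were fitted (-2.49, adjusted p = 0.0889). Groups in which a probe was detected on no array (Fosb in most groups outside resting Naïve cells, Atf3 in BAF180-deficient resting Th2 cells) leave only bounds. WT Atf3 (detected on 2 of 3 arrays), WT Jun (3 of 3) and BAF180-deficient Jun (1 of 3) in resting Th2 cells were near the detection limit.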
